A study of Oryza sativa with 24 samples.

Results

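Rice pollen that had germinated in culture was compared with separate samples of mature pollen, transcript by transcript. The comparison covered bright transcripts, defined as the probe sets, control probe sets left out, whose mean signal was 500 or more over the 3 arrays of mature pollen grains (MPGs) or over the 3 arrays of germinated pollen grains (GPGs). This rule took 12763 of the 57258 probe sets on the Affymetrix Rice Genome Array, and 12762 of them could be tested. Of the 12763, 9479 reached the floor in both groups, 1783 in MPGs only and 1501 in GPGs only. At the edge of the rule, the dimmest member had a mean of 500.0 in its brighter group and the brightest non-member had 499.97.

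The study profiled 24 arrays, 3 for each of 8 tissues of Oryza sativa ssp. japonica: uninucleate microspores (UNMs), bicellular pollen (BCP), tricellular pollen (TCP), MPGs, GPGs, callus cells, leaves and roots. Plants were cultivar Zhonghua 10, with no transgene or mutant allele named for any group. MPGs were shaken from flowering panicles after the anthers had opened. GPGs were fresh mature pollen kept for about 10 min at about 30 °C in a liquid medium of calcium nitrate (3 mM), sucrose (20%), polyethylene glycol 4000 (10%), boric acid and vitamin B1, so that medium, sucrose, calcium and time changed together and cannot be told apart. The study describes most, but not all, of the grains as germinated under this condition and no sorting of GPGs, so each GPG sample also holds grains without a tube. The 3 samples of a group are named as biological replicates. Where nothing says that they came from separate plants or harvests, p-values measure only a spread between such samples. For the p-values printed below that spread was pooled over all 24 arrays of the 8 tissues, so it is not that of MPGs and GPGs alone.

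A mature grass pollen grain is dry and metabolically quiet, and consists of a large vegetative cell that encloses the sperm cells. It is known for carrying a store of messenger RNA laid down before the anther opens, from which proteins are made once the grain takes up water and the vegetative cell pushes out a tube. Tube growth is known to run on calcium signals, actin-guided delivery of vesicles to the tip, loosening of the wall and rapid use of sugars and starch.

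The labels matched the genes that mark these cells. EXPB9, a beta-expansin of the grass pollen allergen group, had a mean signal of 218184 in MPGs and 193432 in GPGs. The actin-depolymerizing factor ADF-9 (125482 and 120002), the cellulose synthase-like gene CSLD5 (50464 and 38944) and LOC_Os10g35930, an SF3-type LIM gene (219560 and 216194), were also bright in both groups. Green tissue markers (8 probe sets) summed to 884.6 to 2031 in the MPG arrays and 1586 to 3097 in the GPG arrays, against a mean of 117470 in leaves, and 1 of them, LOC_Os07g05360, rose (46.67 to 230.7) but had only 58.7 in leaves, so it does not mark green tissue on this array. Of the 8, 1 had a lower mean in GPGs than in MPGs. LHCP, with 24413 in leaves, had 216.8 in MPGs and 507 in GPGs and was unresolved (1.39). RCABP69, a gene outside this list with 17251 in leaves, rose from 704.0 in MPGs to 2007 in GPGs. Tapetum and exine markers (9 probe sets) summed to 845.3 to 1428 on the 6 pollen arrays against 32251 in UNMs, RTS among them had 41.1 in MPGs and 39.87 in GPGs, and none passed the test. No probe set could be matched to the sperm cell marker names. Signals were deposited in units scaled to one target per array, so a fall in signal says that a transcript took a smaller share of the RNA, and fewer cells of a type cannot be told apart from less RNA per cell. Among array controls, the 3′ to 5′ ratio of the ubiquitin control was 0.835 to 0.996 in MPGs and 0.405 to 0.731 in GPGs without overlap, the other ratios overlapped, and the spiked poly-A controls ran from 1077 to 14199, highest in MPG replicate 3. The part of these controls in the results below was not tested.

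Many more bright transcripts held their level after germination than rose or fell, with the spread shared over all 24 arrays. A transcript was said to rise or fall where limma, fitted to log2(signal + 50) with the spread shared over all 24 arrays, put the p, adjusted by Benjamini-Hochberg, under 0.05 with a change of at least 2-fold. It was said to hold where the 95% interval of its change lay wholly within 2-fold. Of the 12762 bright probe sets tested, 6477 held (50.8%), 672 fell (5.27%), 449 rose (3.52%) and 5164 (40.5%) were unresolved, with intervals too wide to place. Over all 47589 probe sets tested, 28.1% held, 4.67% fell and 3.00% rose, so the bright transcripts held more often and changed about as often as the background. The median log2 change of the bright transcripts was 0.04, or -0.10 with arrays scaled to their hybridisation controls and 0.47 with the spiked poly-A controls, and the changes below are not corrected for this shift. The held count fell to between 5494 and 5962 without any single array, to 5783 with the 6 arrays and a trend, to 3432 with equal array medians, to 2789 with the hybridisation controls and to 0 with the poly-A controls. Where the floor was reached in both groups, 5928 held, 250 fell and 185 rose. Among members that reached it in MPGs only, 422 fell and 0 rose, and among those that reached it in GPGs only, 264 rose and 0 fell, directions that the floor itself fixes.

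The number of calls rested on how the spread was estimated. MPG and GPG replicates differed more among themselves (root mean square SD 0.502 and 0.505 on the log2 scale) than those of callus (0.239) or UNMs (0.303). A limma fit of the 6 arrays alone, with the spread allowed to follow brightness, called 217 rises and 313 falls, all of them bright, which were 0.456% and 0.658% of the probe sets tested. Of these, 207 rises and 294 falls were also called with the spread shared over all arrays, and the text below calls them changes in both fits. Without the trend, the 6 arrays gave 0 calls, with 4234 probe sets at an unadjusted p under 0.05, against 11617 with all arrays. The arrays did not overlap between groups for 415 of the 449 rises and 601 of the 672 falls, where every GPG array stood above every MPG array for 7.47% of all probe sets tested and every MPG array above every GPG array for 8.51%.

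**Figure D1:**
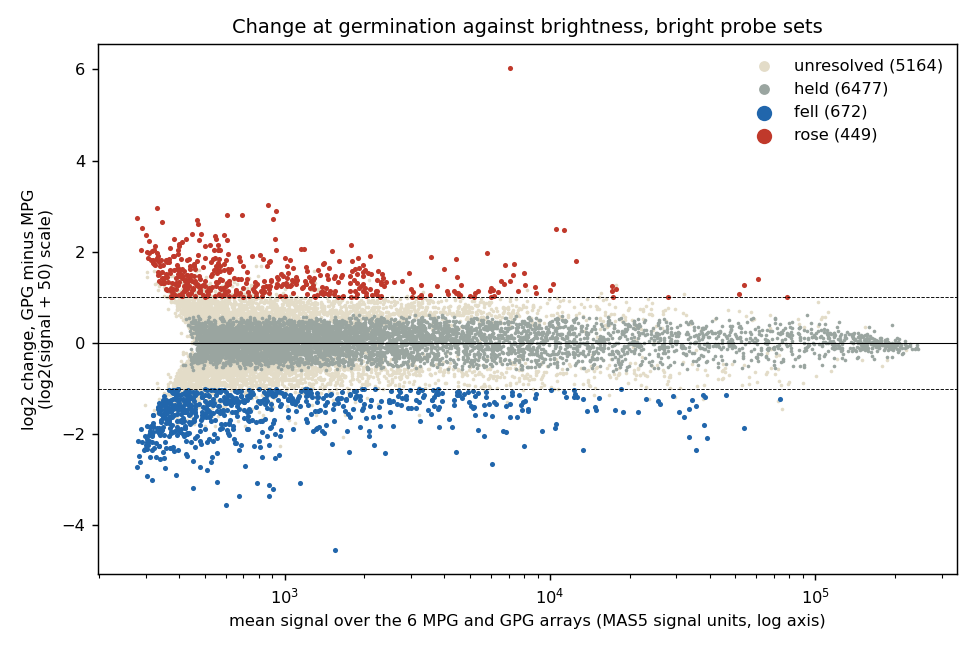
Each point is a bright probe set, with its mean signal over the 6 arrays on a log axis and its log2 change from MPGs to GPGs; dashed lines mark 2-fold. The band narrows towards the brightest transcripts, where most points are grey (held), and a single point stands at 6.03.

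Above a mean signal of 500 over the 6 arrays, brighter classes held more often. At a mean signal of 20000 or more, 81.8% of 862 probe sets held, 19 fell and 5 rose. Between 500 and 1000 the share was 45.7% of 4623, and between 5000 and 20000 it was 66.9%. Holding also needs a narrow interval, and the replicate SD was 0.579 (MPGs) and 0.584 (GPGs) in the former class and 0.284 and 0.27 in the latter. The median absolute log2 change was about the same in both, 0.375 and 0.359, and 0.177 at 20000 or more. Up to 20000, a higher held share thus came with a smaller spread and not with smaller changes. Members with a mean below 500 passed the floor only through their higher group, so their share (15.1% of 1803) is partly set by the rule and is not read with the rest. The 100 brightest probe sets of MPGs and the 100 brightest of GPGs shared 88, and of the 112 in either set 105 held, 7 were unresolved and 0 were called. On each MPG and GPG array the brightest probe set was 1.42 to 1.68 times the 100th (209210 to 290014 at the top). Root arrays had 1.6 to 1.7 with far lower tops (27947 to 34178), and TCP arrays 1.48 to 1.83. Whether the MPG and GPG signals had reached the scanner's ceiling was not tested. Held transcripts carried 74.3% to 77.0% of the summed signal on every array. The fallen ones went from 2.33%, 2.95% and 2.44% on the MPG arrays to 0.918%, 0.900% and 1.00% on the GPG arrays, and the raised ones from 0.540%, 0.464% and 0.639% to 1.30%, 1.38% and 1.45%.

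**Figure D2:**
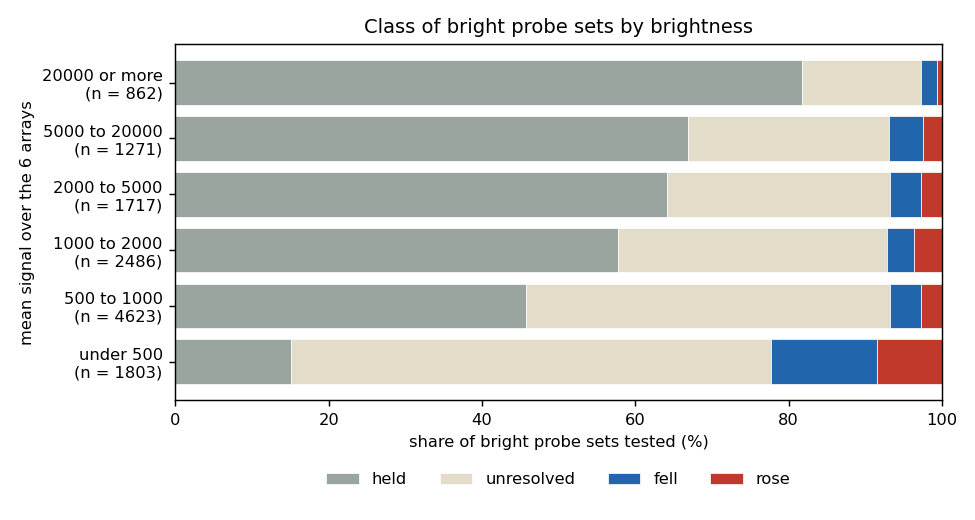
Bars give the share of bright probe sets tested that held, were unresolved, fell or rose, in 6 classes of mean signal over the 6 arrays. The held share runs from 45.7% between 500 and 1000 to 81.8% at 20000 or more, and the class under 500, whose members passed the floor through their higher group only, is not part of that trend. The spread between replicates also narrows with brightness, which by itself lets more probe sets hold.

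Genes known for tube growth were found in every class. Of 43 bright probe sets for calcium signalling, 28 held, 7 fell and 3 rose, and members of that list that held come first. The calcium-dependent protein kinase gene CPK2 read 199359, 168446 and 192724 on the MPG arrays and 201817, 203217 and 163793 on the GPG arrays, a log2 change of 0.02 (SE 0.26). CPK21, CPK22 and CPK29, kinases of the same family, differed by -0.07, 0.06 and -0.10. The groups overlapped for all 4 of these kinases. Besides them the kinase genes CIPK5 (168831 and 158777) and CIPK30 (139209 and 137646) and the calmodulin-like gene CML15 (120796 and 117664) held. Signals of different probe sets depend on their probes, so the order of the genes by signal is not an order of transcript levels.

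Of 17 actin cytoskeleton probe sets, 10 held, and of 19 for microtubules and their motors, 16 did. ADF-1, which severs and depolymerizes actin filaments, had means of 139729 for MPGs (SD 4398, n = 3) and 130604 for GPGs (SD 16014, n = 3), with overlap between the groups. The actin-binding LIM genes LOC_Os10g35930 and LOC_Os04g45010 changed by -0.03 and 0.12, and the kinesin gene KIN7J by 0.18. Villin-2, an actin bundler, had every MPG array above every GPG array (145954 and 113356 as means) yet held at -0.37. Rac6, a Rop-type GTPase of the kind that sets the site of tip growth, had 73903 and 70049.

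Other held genes served the wall, transport, energy and protein synthesis. EXPB9 changed by -0.19 and the expansin gene EXP32 by 0.05. The sugar transporter gene SWEET5 had 171667 and 167843, and the yellow stripe-like transporter gene YSL7 192645 and 183167. FBA2, for the glycolytic enzyme fructose-bisphosphate aldolase, had 205914 and 167587 with no overlap between groups, a log2 change of -0.30 that still lay within 2-fold. GOS2, an initiation factor of translation, had 174400 and 165551. Of the 15 bright translation factor probe sets 12 held, 0 fell and 1, TIF3K1, rose (499.5 to 1255). TIF3K1 passed the floor in GPGs only, which fixed the direction of its rise. NifU1, an iron-sulfur cluster scaffold, SAP8, a stress-associated zinc finger gene, and ARF, an ADP-ribosylation factor of vesicle budding, changed by -0.15, -0.04 and -0.15. EXPB9 became unresolved without MPG replicate 2 (-0.25), GPG replicate 1 (-0.25) or GPG replicate 2 (-0.28), and EXP32 without GPG replicate 3 (0.17). SWEET5 stayed held only without MPG replicate 3, and lay between -0.11 and 0.09 without any of the other arrays.

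Genes of the wall and the cytoskeleton gave some of the falls. EXPB10, a beta-expansin like EXPB9, read 67628, 108773 and 77366 in MPGs and 22106, 26068 and 20460 in GPGs. Its groups lay far apart, with a log2 change of -1.86 (SE 0.30, limma adjusted p = 0.00068). It was the only called member of the 7 bright expansin probe sets, while EXP26 had 17319 and 9247 and was unresolved. VLN4, for a villin that bundles actin, read 24660, 30320 and 28853 in MPGs and 9285, 9265 and 10692 in GPGs, so that all MPG arrays stood well above all GPG arrays. It changed by -1.51 (SE 0.32, limma adjusted p = 0.0049), and its other bright probe set changed by -1.58. UGE-2, for a UDP-glucose epimerase that makes sugars for wall polymers, read 4701, 5297 and 5151 against 2074, 2061 and 2202, a change of -1.24 in tight and separate groups. All 3 genes fell in both fits.

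Pectin genes could be matched only through descriptions in the study's own tables, which makes them a list chosen on these samples and no independent evidence of direction. Of 7 bright probe sets, 2 fell, 1 rose and none held, with a median log2 change of -0.99. LOC_Os01g14940, described as a pectinesterase inhibitor, read 17756, 19203 and 13401 in MPGs and 11031, 4898 and 8285 in GPGs, a change of -1.11 whose call was lost without GPG replicate 2 (-0.79). LOC_Os04g51340, a pectin acetylesterase, went from 2137 to 570.3 (-1.84). Both were described after their values had been seen.

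Among 31 bright probe sets of sucrose and starch metabolism, 7 fell, 0 rose and 13 held, and 5 of the 7 fell in both fits. The median change of the list was -0.29, against 0.04 for all bright probe sets. Of the 31, 5 were matched only through the study's own tables, and so were chosen on these samples, LOC_Os01g51754 among them. GBSS-I, the granule-bound starch synthase that makes amylose, read 1954, 2549 and 2147 in MPGs and 448.5, 713 and 505.7 in GPGs. Those groups were well apart, with a change of -1.92 (SE 0.26, limma adjusted p = 0.00014), and its other bright probe set changed by -1.67. That other probe set (376.9 in GPGs) and HXK6 (356.1) passed the floor in MPGs only, which fixed the direction of their falls. GWD3, a glucan water dikinase that phosphorylates starch ahead of its breakdown, read 1934, 1987 and 2066 against 628, 748.3 and 653.9 and fell (limma adjusted p = 0.00024), with no array of either group near the other. LOC_Os01g51754, described as an alpha-amylase, had 6209 and 2879 (-1.08), a call lost without MPG replicate 2 (-0.90) or GPG replicate 2, while its other bright probe set had 773.0 and 524.1 and was unresolved. By contrast the sucrose phosphatase gene SPP2 held (46166 and 37440), as did the disproportionating enzyme gene DPE1 (21501 and 27493). In glycolysis 3 of 14 fell and 8 held, the fallen ones including the triose phosphate isomerase gene Rictpi2 (13491 and 6674, -1.02), whose call was lost without MPG replicate 3 (-0.86) or GPG replicate 1 (-0.81), and whose other probe set (516.8 and 328.5) was unresolved.

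Sugar and water transport had 7 falls, 1 rise and 9 held among 23 bright probe sets, with a median change of -0.45. PIP2;1 (112.4, 79.83 and 160.4 in GPGs on its probe sets), PIP1;1 (265.8) and Os8N3 (95.3) passed the floor in MPGs only. The floor fixed the direction of these falls, so the count gives no direction for the list. LOC_Os10g26470, described in the study's tables as a sucrose transporter, read 7363, 7591 and 7476 in MPGs and 3063, 2606 and 2645 in GPGs. Its arrays were tightly grouped and the change was -1.42 (limma adjusted p = 1e-04). LOC_Os02g55400, described as a plasma membrane ATPase and so of the family that pumps protons out of the cell, read 7746, 6682 and 7989 against 1623, 1084 and 1542. It fell by 2.38 (limma adjusted p = 7.1e-06), and LOC_Os05g40230, described as subunit E of the vacuolar proton pump, went from 4619 to 2028 (-1.19). These 3 were described after their values had been seen. Of the 38 bright ion and proton transport probe sets on the list itself, 26 held, 1 fell (HAK26, a potassium transporter, 623.7 to 184.0) and 0 rose. HAK26 passed the floor in MPGs only, which fixed the direction of its fall.

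Falls were counted in the signalling and gene control lists, beside 5.27% of all bright probe sets. They were 5 of 129 transcription factor probe sets, 2 of 34 for chromatin, 1 of 28 for phosphatases and 3 of 34 for soluble kinases. Calcium signalling had 7 of 43, auxin and ethylene response 5 of 31 and the jasmonate repressors 3 of 11. All the jasmonate falls passed the floor in MPGs only. So did GH3-8, EIL1 and ARF16 in the auxin and ethylene list, and CML18, CaM-3 and CML1 in calcium signalling. MADS24, JMJ703 and CDC2Os-3, in the other lists, did too. The floor fixed the direction of these falls, so the counts alone give no direction for the lists. The MAP kinase gene MPK16 read 9079, 13778 and 9517 in MPGs and 3257, 3445 and 3492 in GPGs, a change of -1.63 (SE 0.26, limma adjusted p = 0.00053). MPK8, of the same family, had 9796 and 4600 (-1.08), a call lost without MPG replicate 2 (-0.98). Of the 34 bright probe sets for soluble kinases these and CDC2Os-3 fell, 28 held and 0 rose. CDC2Os-3, at 605.9 and 260.8 with overlapping groups, fell in the shared-spread fit only and lost its call without MPG replicate 2 (-1.04) or GPG replicate 1 (-0.65). Within calcium signalling CPK6 (3743 to 1635), CDPK5 (2528 to 867.4) and the calmodulin-like gene CML14 (2406 to 901.6) fell in both fits. PP2A3, a catalytic subunit of protein phosphatase 2A, went from 2428 to 1109 (-1.12), a call lost without GPG replicate 2 (-0.90). JMJ705, which removes methyl groups from histone H3, fell by 1.33 (2215 to 870.8) and the CCCH zinc finger gene C3H6 by 1.29 (3581 to 1408). SAM2, for S-adenosylmethionine synthetase, went from 35986 to 15025 (-1.27).

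The single bright plastid-encoded probe set fell as well. It matched atpI, for a subunit of the plastid ATP synthase, and read 1310, 3266 and 2188 in MPGs and 874.9, 358.2 and 585.1 in GPGs, without overlap, a change of -1.80. Of 23 ribosomal protein probe sets 2 fell, 0 rose and 13 held, with a median change of -0.34. RPL5 read 941.3, 1124 and 838.2 against 286.7, 54.7 and 425.2 and fell by 1.98 in both fits. RPL5 passed the floor in MPGs only, so the floor fixed the direction of its fall.

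**Figure D3:**
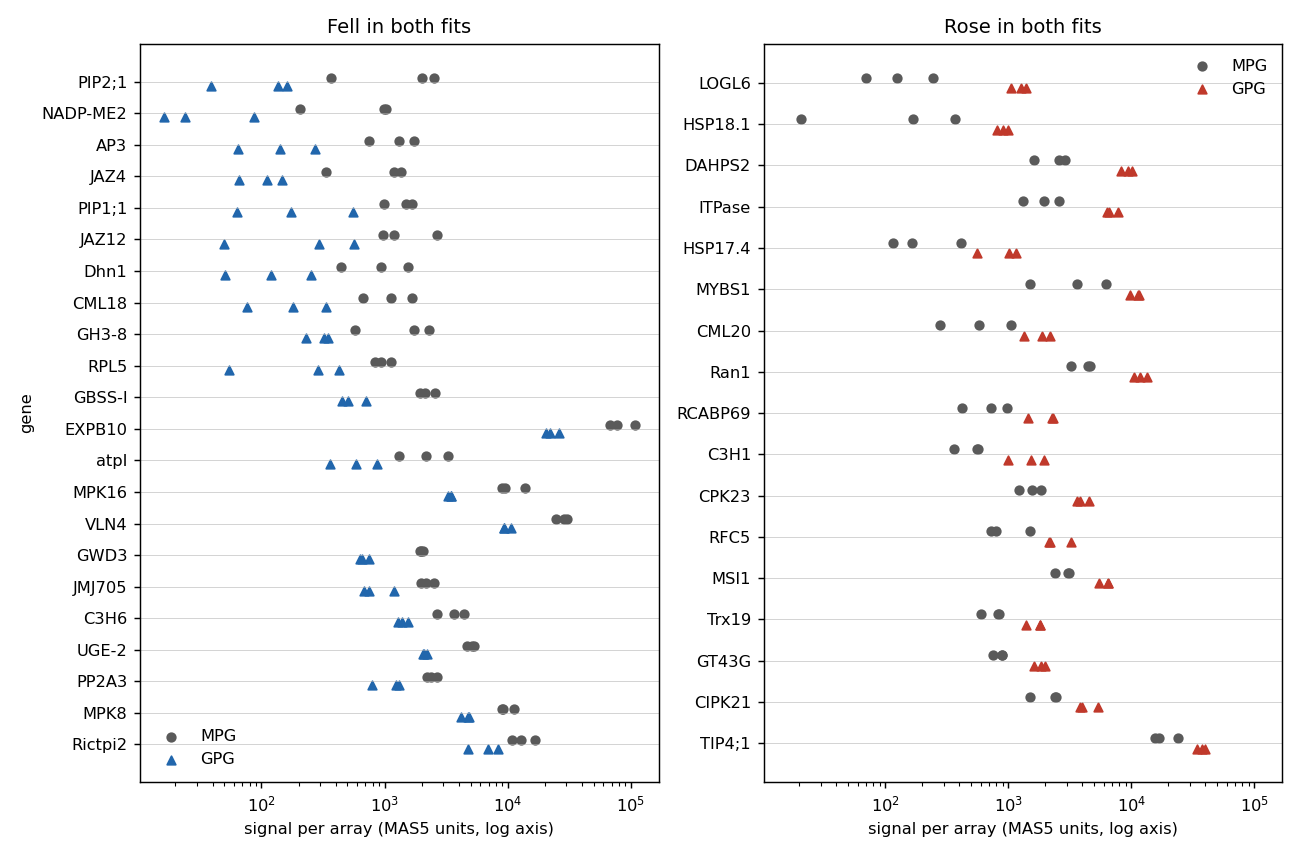
Signal on each of the 3 MPG arrays (dots) and 3 GPG arrays (triangles), on a log axis, of the genes named by rule that fell (left) or rose (right) in both fits. No gene shown has overlapping groups.

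The steepest falls among the genes named by rule were in an aquaporin, a malic enzyme, a floral MADS-box gene and jasmonate repressors. The genes that fell in this paragraph and the next were under 500 in GPGs, so the floor fixed their direction. PIP2;1, a plasma membrane aquaporin, read 2014, 369.2 and 2544 in MPGs and 136.3, 161.8 and 39.0 in GPGs. All MPG arrays were higher, MPG replicate 2 by far the least, and the change was -3.11 (SE 0.54, limma adjusted p = 0.0012), with its other bright probe sets going from 529.7 to 79.83 and from 511.4 to 160.4, the latter call lost without MPG replicate 1 (-1.10) or GPG replicate 1 (-0.89). PIP1;1, an aquaporin of the same family, fell by 2.49 (1382 to 265.8). NADP-ME2, for a malic enzyme, read 1024, 204.2 and 982.7 against 16, 87.6 and 24, so that again MPG replicate 2 was lowest in its group, and fell by 2.90. AP3, the rice MADS-box gene of stamen and lodicule identity, went from 1261 to 159.5 (-2.69).

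The jasmonate repressor genes JAZ4 (956.8 to 108.0, -2.50) and JAZ12 (1605 to 303.9, -2.45), which keep jasmonate responses off, fell in both fits, and JAZ7 (555.8 to 67.77) fell in the shared-spread fit only, with overlapping groups and a call that was lost without MPG replicate 1 (-1.34), MPG replicate 3 (-1.30), GPG replicate 1 (-1.66) or GPG replicate 3 (-1.83). JAZ6 held (32927 and 36877), and JAZ9 (65656 and 67297) and JAZ10 (24196 and 25227) were unresolved with changes of 0.04 and 0.05. The dehydrin gene Dhn1 (975.2 to 140.4), the calmodulin-like gene CML18 (1155 to 197.2) and GH3-8 (1538 to 298.6), for an enzyme that conjugates auxin to amino acids, fell by 2.41, 2.34 and 2.00. GH3.2, of the same family as GH3-8, held at 58808 and 66532.

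Several of these genes were far brighter in a sporophytic tissue than in MPGs. Levels across tissues rest on the deposited scaling, under which the hybridisation controls averaged 14855 to 27682 on the MPG and GPG arrays and 2146 to 7398 on the others. NADP-ME2 had a mean of 19186 in roots, PIP1;1 19104 in roots, JAZ4 8294 in leaves, JAZ12 12750 in leaves, Dhn1 5716 in roots, CML18 12616 in leaves and GH3-8 23730 in callus. PIP2;1 had 1226 in leaves and 1214 in roots on the probe set with 1643 in MPGs, but 11195 and 7250 in leaves and 18904 and 15744 in roots on its other bright probe sets. AP3 was brighter in MPGs than in any other tissue profiled, with 830.5 in roots next. Of the 113 falls whose mean was 500 or more in callus, leaf or root but under 500 in TCP, MPG replicate 2 was the lowest MPG array for 66 (58.4%). The same was true of 193 of all 672 falls (28.7%), of 532 of the 1406 bright probe sets with that tissue profile (37.8%), of 211 of all 449 rises (47.0%) and of 4177 of all 12762 bright probe sets (32.7%). The green tissue markers given above do not track tissue that is not green. The part that RNA of other floral tissue in the shaken pollen had in these falls was not tested.

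**Figure D4:**
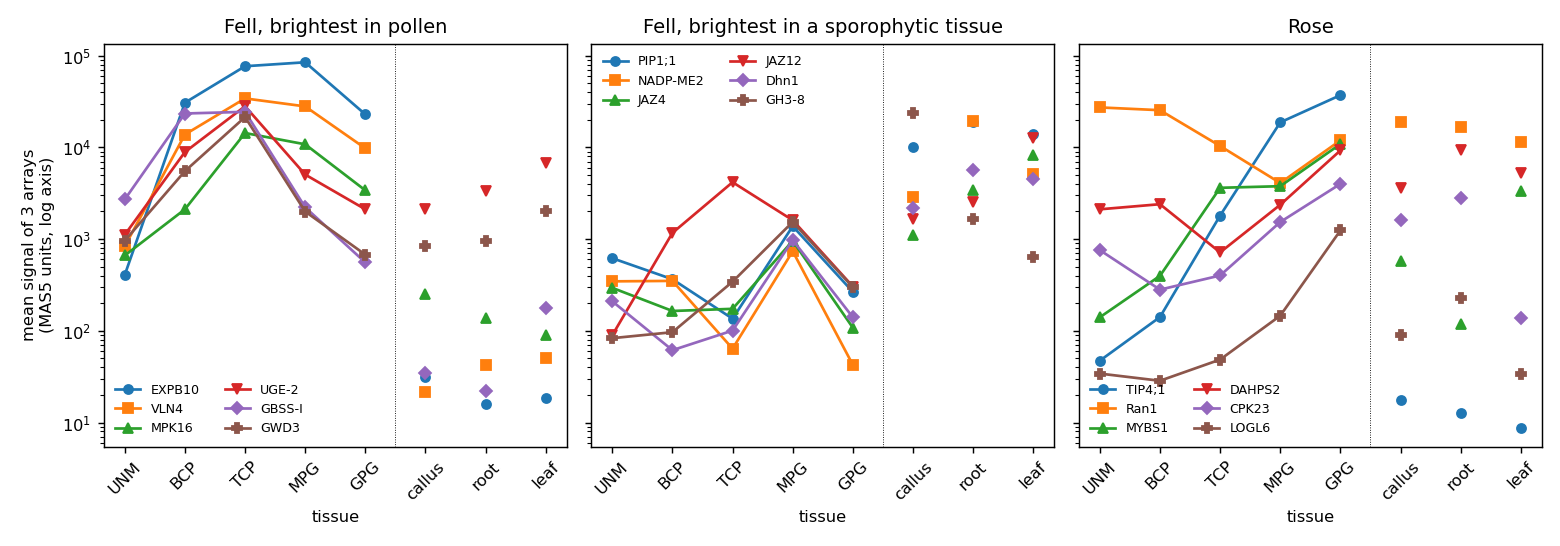
Mean signal of 3 arrays per tissue, on a log axis, for genes that fell and were brightest in pollen (left), genes that fell and were brightest in a sporophytic tissue (middle) and genes that rose (right); lines join the pollen stages. EXPB10, VLN4 and GBSS-I were already bright in TCP, while TIP4;1 and LOGL6 had their highest means in GPGs.

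The largest fall of all was in LOC4341944, whose function the tables used here do not give. It read 3234, 937 and 4905 in MPGs and 160.6, 20.6 and 36.5 in GPGs, a change of -4.54 in both fits, with the groups far apart and MPG replicate 2 the lowest of its group. LOC4335172 came next at -3.56 (1156 to 43.77). Both of these genes passed the floor in MPGs only, which fixed the direction of their falls. At a mean signal of 20000 or more, 19 probe sets fell, all in both fits and without overlap, from MPG means of 32037 to 103232. The steepest of these was LOC4351130, which read 54652, 68212 and 55035 in MPGs and 11266, 12732 and 10596 in GPGs (-2.35), followed by LOC4329773 (63334 to 14846, -2.08) and LOC4347928 (54303 to 12585, -2.07). The brightest was LOC4328714 (103232 to 43870, -1.23), which had 23307 in TCP. EXPB10 and SAM2 were the only genes among the 19 with an informative name, and these probe sets were described after their values had been seen.

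The largest rise of all was in a probe set that matched no gene. It read 350.5, 208.4 and 44.5 in MPGs and 14620, 15324 and 12067 in GPGs, a change of 6.03 (limma adjusted p = 3.2e-08), and its mean was 67.2 or less in every other tissue. The next largest rise, LOC4338913, changed by 3.03 (157.6 to 1576). Both of these probe sets passed the floor in GPGs only, which fixed the direction of their rises. At a mean signal of 20000 or more the 5 rises were TIP4;1, LOC9267054 (34666 to 87198) and 3 probe sets that matched no gene, which went from 51723 to 105156, from 33256 to 69587 and from 31721 to 75831. All 5 had lower means in TCP than in MPGs, at 1577 to 10129, and none of the 24 called probe sets at this level had overlapping groups. These probe sets were described after their values had been seen.

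TIP4;1, an aquaporin of the vacuole membrane, read 16642, 15585 and 23925 in MPGs and 39566, 37238 and 34300 in GPGs. Its groups were apart, but the change of 1.01 (SE 0.25, limma adjusted p = 0.015) sat at the 2-fold limit and fell below it without MPG replicate 1 (0.94), MPG replicate 2 (0.89) or GPG replicate 1 (0.96). TIP4;1 had 1803 in TCP and no more than 17.8 in callus, leaf or root. Its other bright probe set had 1394 and 1772 and held. The small aquaporin gene SIP2;1 held at 111169 and 124701. Ran1, the GTPase that drives transport in and out of the nucleus, read 4417, 3252 and 4582 against 11797, 13408 and 10496, a change of 1.54 (SE 0.19, limma adjusted p = 7e-05) in clearly separate groups.

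Heat shock genes gave 3 rises, 1 fall and 12 held among 23 bright probe sets, with a median change of 0.25. HSP18.1, a small heat shock protein that keeps unfolding proteins soluble, read 372.2, 20.6 and 169.5 in MPGs and 908.7, 808 and 1004 in GPGs, a change of 2.35 (SE 0.53, limma adjusted p = 0.0074). Its other bright probe set changed by 1.91, and HSP17.4, of the same family, had 231.5 and 905.9 (1.85). All GPG arrays were above all MPG arrays for these 3 probe sets. All 3 passed the floor in GPGs only, so the floor fixed the direction of their rises. HSF1, a heat shock factor of the B class, had 1 probe set at 32.0 and 626.8 (2.96), which also passed the floor in GPGs only. Another was at 519.1 and 1378 (1.41), a call lost without MPG replicate 1 (1.22) or MPG replicate 2 (1.26). HSF1 was described after its values had been seen. HSP81-1, an HSP90 gene, had 2488 and 3167 and held. A probe set of HSP81-3 fell (515.7 to 220.6) in the shared-spread fit only. It passed the floor in MPGs only, which fixed its direction as well, so the counts of rises and falls give no direction for the list. GPGs were kept at about 30 °C, and no array of pollen kept at that temperature without medium was part of the comparison.

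Calcium signalling also held 3 genes that rose, all in both fits. CPK23 read 1217, 1548 and 1838 in MPGs and 3851, 4529 and 3604 in GPGs, a change of 1.36 (SE 0.24, limma adjusted p = 0.0011) with no overlap. CML20, a calmodulin-like gene, had 634.0 and 1804 (1.58), and CIPK21, a kinase that calcineurin B-like sensors bind, had 2115 and 4407 (1.06). The call on CIPK21 was lost without MPG replicate 1 (0.83), GPG replicate 2 (1.13) or GPG replicate 3 (0.90). PP2C07, a protein phosphatase, went from 10768 to 23554 (1.14, or 0.99 without MPG replicate 2) with its other probe set unresolved at 0.73, and the myosin gene LOC_Os01g43360 from 3871 to 9572 (1.29), the only rise in the actin list. Both were described after their values had been seen.

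Nuclear genes were also among the rises, beside 3.52% of all bright probe sets that rose. Chromatin genes had 4 rises, 2 falls and 20 held of 34. MSI1, a histone chaperone subunit, read 3090, 2405 and 3042 in MPGs and 6425, 6520 and 5468 in GPGs, a change of 1.10 (limma adjusted p = 0.0013) that was 0.99 without MPG replicate 2, and its other bright probe set rose by 1.63. Both probe sets had separate groups. Of 21 bright DNA replication probe sets 2 rose, 0 fell and 11 held, with a median change of 0.51. RFC5, a subunit of the factor that loads the replication clamp, had 1010 and 2513 (1.32), and FEN1A, a flap endonuclease, had 259.2 and 640.8 and rose in the shared-spread fit only (1.21, or 0.93 without MPG replicate 2). FEN1A and the chromatin gene ARP7 (409.8 in MPGs) passed the floor in GPGs only, which fixed the direction of their rises. The counts, and the replication median that includes FEN1A, thus give no direction for these lists. The core histone gene H2B.5 held (33611 and 40388).

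Of 129 bright transcription factor probe sets 10 rose, 5 fell and 61 held, where 3.52% of all bright probe sets rose and 5.27% fell. MYBS1, a MYB factor named for its role in sugar control of alpha-amylase genes, read 3600, 1506 and 6206 in MPGs and 9686, 11522 and 11365 in GPGs. The groups were apart and the change was 1.73 (SE 0.42, limma adjusted p = 0.012), a call lost without MPG replicate 2 (1.19). C3H1, a CCCH zinc finger gene, had 494.8 and 1485 (1.47) and no more than 3.833 in callus, leaf or root. C3H1 and GATA17 (241.4 in MPGs), both among the rises counted, passed the floor in GPGs only. That fixed the direction of their rises, so the counts alone give no direction for the list.

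Single metabolic genes rose besides. LOGL6, of the family whose enzymes release active cytokinin, read 123.7, 69.2 and 245.5 in MPGs and 1268, 1401 and 1054 in GPGs, the largest rise among the genes named by rule at 2.81 (SE 0.41, limma adjusted p = 0.00025). LOGL6 passed the floor in GPGs only, so the floor fixed the direction of its rise. ITPase, which clears inosine triphosphate from the nucleotide pool, had 1948 and 6914 (1.85). DAHPS2, for the first enzyme of the shikimate pathway, read 2601, 1609 and 2887 against 9315, 8213 and 10217 on 1 probe set, a rise of 1.98, but its other bright probe set changed by -1.10, so no direction can be given for the gene. That fall was lost without MPG replicate 1 (-1.10), MPG replicate 2 (-0.83) or GPG replicate 2 (-0.68). GT43G, a glycosyltransferase of the xylan family, had 842.6 and 1818 (1.06, or 0.99 without MPG replicate 1 and under 2-fold without GPG replicate 3). Trx19, a thioredoxin, had 760.3 and 1661 (1.08, or 0.93 without MPG replicate 1), and SDH2-1, the iron-sulfur subunit of succinate dehydrogenase, 2667 and 5592 (1.08, or 0.89 without MPG replicate 2) with its other probe set unresolved at 0.93. Outside the metabolic genes, RCABP69 had 704.0 and 2007 (1.49). It was not on the green tissue marker list, but its mean was 17251 in leaves against 74.13 in roots and 24.1 in callus. It rose in both fits with no overlap, and the part of green tissue RNA in this rise was not tested.

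**Figure D5:**
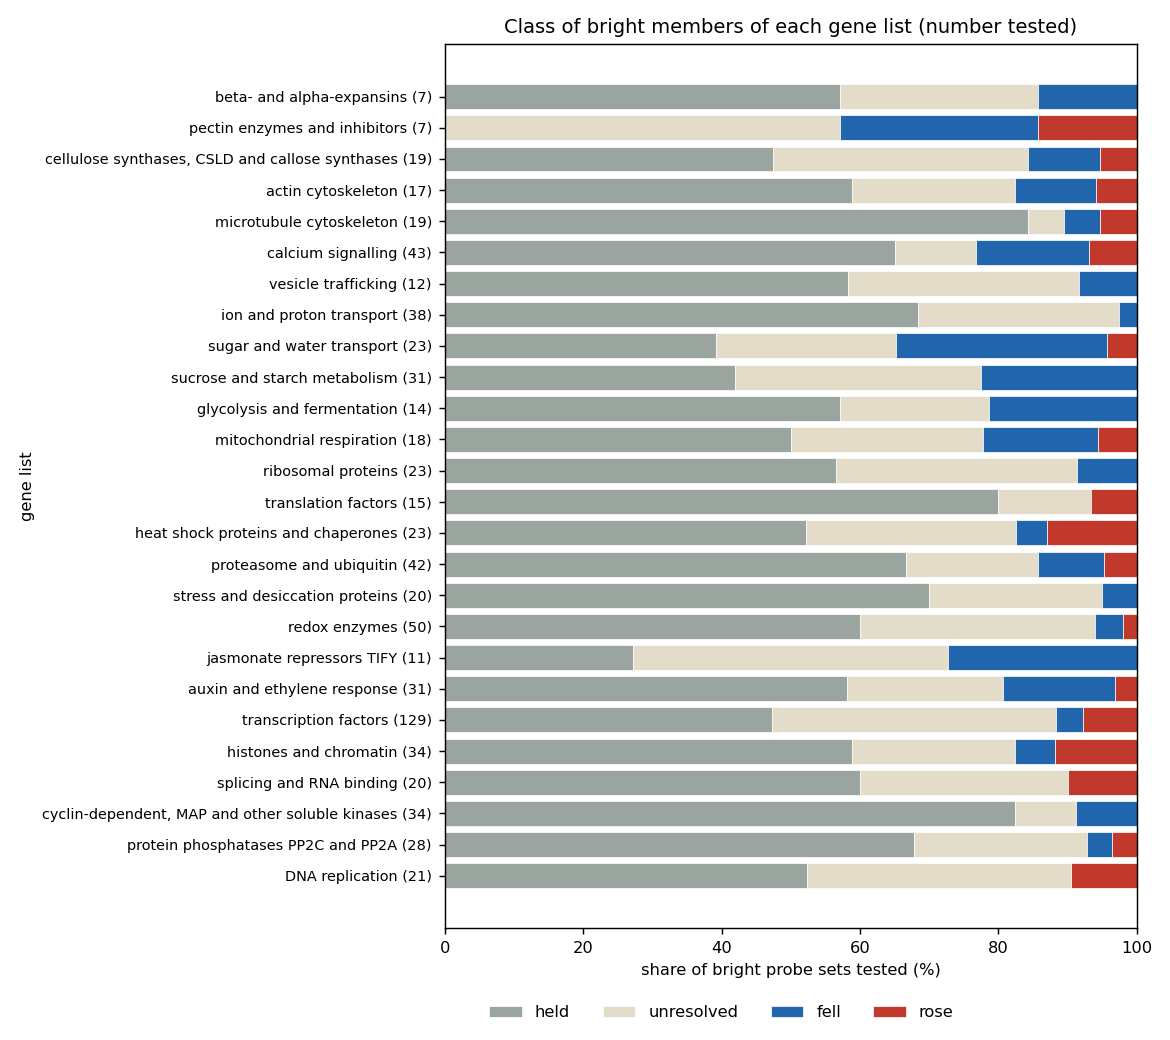
For each gene list with at least 7 bright probe sets tested, bars give the share that held, was unresolved, fell or rose, with the number tested in brackets. Starch, sugar and water transport and jasmonate repressor lists show blue (fell) and little or no red (rose). The floor fixed the direction of all the jasmonate falls and of some in the others, so these bars alone give no direction. Microtubule, kinase and translation factor lists are mostly grey (held).

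Read beside the earlier stages, fallen and raised transcripts had different levels in TCP. These are levels side by side, with no test. Of the 145 falls with a mean of 2000 or more over the 6 arrays, 142 (97.9%) had a mean of 500 or more in TCP, against 61 of 84 rises (72.6%) and 3662 of all 3850 bright probe sets at that level (95.1%). The median TCP signal was 10290 for the falls, 1445 for the rises and 5094 for the held. GBSS-I had 24386 in TCP, 2217 in MPGs and 555.7 in GPGs, GWD3 had 21390, 1996 and 676.7, and UGE-2 had 28057, 5049 and 2112. EXPB10 had 76598, 84589 and 22878. VLN4 had 34155, 27944 and 9747, and 14008, 7818 and 2619 on its other bright probe set. LOGL6 had 48.57 in TCP, 146.1 in MPGs and 1241 in GPGs, and CIPK21 had 140.1, 2115 and 4407. Ran1 went the other way first, with 10341 in TCP, 4084 in MPGs and 11900 in GPGs.

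Genes with several bright probe sets gave a check within the array. Of 630 such genes, 527 had no probe set called, 23 had all of them called in the same direction, 78 had some called in a single direction and 2, DAHPS2 and LOC4339550, had calls in opposite directions. Of the genes named by rule, 24 of 44 falls, 16 of 25 rises and 28 of 33 held genes kept their class whichever of the 6 arrays was left out.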

How the data were processed

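Signal intensities of 57258 probe sets on 24 arrays were used as deposited. Per the labels and the study's methods, the authors hybridised biotin-labelled cRNA from total RNA (5 μg per the labels, whereas the study's methods state another amount) and computed linear MAS5 signals in GCOS, scaling each array to a common target. The submitters' processing notes name GCOS and MAS5, and the GCOS version is not given in the sources used here. Here 123 control probe sets were left out, log2(signal + 50) was taken, and probe sets with a signal of 100 or more on at least 3 arrays were tested. limma 3.58.1 in R 4.3.3 (lmFit and eBayes, two-sided, Benjamini-Hochberg over all 47589 probe sets) was fitted to the 8 tissues with 16 residual degrees of freedom. The fit was first tested on simulated data. Tables and plots used Python 3.11.15 with pandas 2.3.3, numpy 2.4.6 and matplotlib 3.10.9. The number of arrays limits the precision.

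Of the bright probe sets, 7352 matched 1 gene of the platform annotation, 36 several and 5375 none. Symbols came from RefSeq gene tables, which give no product names, or from descriptions in the study's tables. Members matched only through those descriptions were chosen on these samples. They made up 43 of the 129 transcription factor and 14 of the 31 auxin and ethylene probe sets. Genes named by rule, 102 in all, were bright members with an informative symbol and 1 probe set a gene (that with the highest mean over the 6 arrays). They were the 12 largest rises, 12 largest falls and 12 brightest, and in each of 31 lists up to 3 called genes per direction and the brightest held. A gene described through a study table or another probe set lay outside this rule. The members and lists were chosen with earlier results of these data known. Alternatives varied the offset, filter, scaling, floor, fold limit, arrays and spread.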

Additional observations from a re-analysis of the deposited data

How the results depend on the processing

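None of the 195 called probe sets with a symbol or a study description changed sign under any alternative run, but the numbers of calls moved. Genes with neither, such as LOC4341944 and LOC4351130, were outside this check. Rises and falls over all probe sets (1427 and 2224) became 434 and 700 with an offset of 200. Bright rises, falls and held (449, 672 and 6477) became 223, 325 and 4297 with a floor of 1000, and 297 and 423 rose and fell with the floor on the mean of 6 arrays. A 1.5-fold limit gave 884 rises and 1325 held, and quantile normalization 711 rises. With array medians made equal, all rises and falls were 454 and 493, and bright rises, falls and held 193, 196 and 3432. Scaling to the hybridisation controls gave 48 and 203, and 32, 112 and 2789, with the bright median at -0.10. Scaling to the poly-A controls gave 1 and 1, and 1, 1 and 0, and moved the bright median from 0.04 to 0.47.

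Only the 6 arrays gave 0 and 0, and 0, 0 and 2652 for bright probe sets. Alternatives chosen after seeing the data were the 6 arrays with a trend (217 and 313, all bright), 15 pollen arrays (607 and 983, and 269 and 420) and group weights (21 and 68, and 13, 39 and 2176). Without single arrays, all rises ranged from 1391 to 2022, all falls from 2125 to 2888, bright rises from 412 to 656, bright falls from 572 to 813 and held from 5494 to 5962. Replicate numbers did not pair the samples, since deviations of same-numbered arrays correlated at 0.086, -0.006 and 0.096, and a replicate block gave 1494 and 2319, and 465, 698 and 6649. Other alternatives kept these counts within 1.5 times. Of 195 called probe sets of named genes, 101 kept their call with the 6 arrays and a trend, 127 with the 15 pollen arrays, 74 with equal medians, 28 with hybridisation controls, 8 with group weights, and 0 with poly-A controls or only the 6 arrays. Of 33 held, 18 stayed held with equal medians, 13 with hybridisation controls, 7 with group weights and 0 with poly-A controls. Spread between replicates and scaling limit what these 6 arrays resolve, and a ceiling on the brightest signals was not tested.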

Other observations

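Redox enzymes and the protein turnover machinery mostly held. Of 50 bright redox probe sets 30 held, 1 rose and 2 fell, and of 42 for the proteasome and ubiquitin 28 held, 2 rose and 4 fell. LOC_Os06g39870, described in the study's tables as subunit 8 of the 26S proteasome, went from 1213 in MPGs to 3304 in GPGs (1.57). Of 20 probe sets for splicing and RNA binding 12 held, 2 rose and 0 fell, with a median change of 0.30. LOC_Os05g51680, described as an SCP-like secreted protein, went from 10563 to 2711 (-1.94), and LOC_Os02g53820, an endoglucanase, from 903.5 to 2913 (1.65). These genes were singled out after their values had been seen.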
